A study of Mus musculus with 8 samples.

Results

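Group 2 innate lymphoid cells (ILC2s), a type of tissue-resident lymphocyte that makes type 2 cytokines, carried transcripts of all 10 of a set of dehydrogenases and pentose phosphate enzymes, *Idh1*, *Idh2*, *Idh3a*, *Mdh1*, *Mdh2*, *Me1*, *Me2*, *G6pdx*, *Pgd* and *Tkt*. They came from the colon of C57BL/6 mice labelled WT, whose age the labels leave out, and were sorted before culture. For 5 days the medium held IL-33, IL-25, IL-7 and IL-2 (10 ng/mL of each). Then 4 libraries were made from cells given SC-57461A, an inhibitor of leukotriene A4 hydrolase, for 16 hours, and 4 from cells given vehicle; both groups had the same cytokines. The labels do not say that replicates came from separate mice or cultures, so the spread between libraries may be technical. The 10 genes, of 25367 in the count table, were chosen by pathway and location in the cell, with the SC-57461A and vehicle counts of these same libraries in view. Their values in that contrast are therefore given as a description, with no p printed for a member. Where members are named as called or not called, the calls describe the fit and support nothing. Counts of called members are set beside the share or count of all genes called.

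Isocitrate and malate dehydrogenases exist as separate cytosolic and mitochondrial proteins, and the exchange of malate and isocitrate between the compartments moves reducing power across the inner mitochondrial membrane. Cytosolic isocitrate dehydrogenase (*Idh1*), malic enzyme (*Me1*) and the oxidative steps of the pentose phosphate pathway (*G6pdx*, *Pgd*) make NADPH in the cytosol, where fatty acid and sterol synthesis and glutathione reduction use it. Lymphocytes driven to grow by cytokines draw on these pathways for lipids and nucleotides.

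Total counts were 47376196 to 71155654 per library. All 11 ILC2 markers examined, *Gata3*, *Il1rl1* and *Il13* among them, were detected in both library sets, A and B, described next. Their summed levels in set A were 18846 to 18909 CPM (counts scaled to a common library size) with SC-57461A and 17560 to 18120 CPM with vehicle. In set B they were 17724 to 18030 CPM with SC-57461A and 15424 to 16080 CPM with vehicle. Single markers did not all follow the sum. *Gata3* was lower with SC-57461A in set A (825 and 614 against 1028 and 939 CPM) and in set B (704 and 625 against 741 and 883 CPM). The libraries fell into 2 sets by their summed deposited FPKM (fragments scaled by gene length and library total): set A held SC-57461A replicates 2 and 3 and vehicle replicates 1 and 2, and set B held SC-57461A replicates 1 and 4 and vehicle replicates 3 and 4. These sets separated on the first principal component (61.2% of the variance) and the treatments on the second (10.2%). The labels name no batch. Values within each set are therefore given beside the pooled ones.

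*Idh1* stood out among the 10 genes in its difference between treatments: its fitted level was 2.04-fold higher with SC-57461A, while the pooled differences of the other members ran from -0.02 (*Me2*) to 0.30 (*Me1*) on the log2 scale. The cytosolic members *Mdh1*, *G6pdx*, *Pgd* and *Tkt* were higher in all 4 SC-57461A libraries than in all 4 vehicle libraries, by 1.18- to 1.23-fold. The cytosolic *Me1* overlapped between treatments, as did all the mitochondrial members, *Idh2*, *Idh3a*, *Mdh2* and *Me2*. In edgeR's quasi-likelihood test over all 15095 genes tested, 1 of the 10 members (*Idh1*) was called higher at a Benjamini-Hochberg adjusted p under 0.05, where 0.272% of all genes were. The 5 members with no overlap between treatments compare with 3.01% of all genes without overlap in that direction. The median log2 difference over the 10 members was 0.24, and over all genes tested it was 0.0094. Since the members were selected with this contrast known, nothing is read from those counts. As these are bulk cultures, fewer cells of a type and less RNA per cell cannot be told apart.

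**Figure D1:**
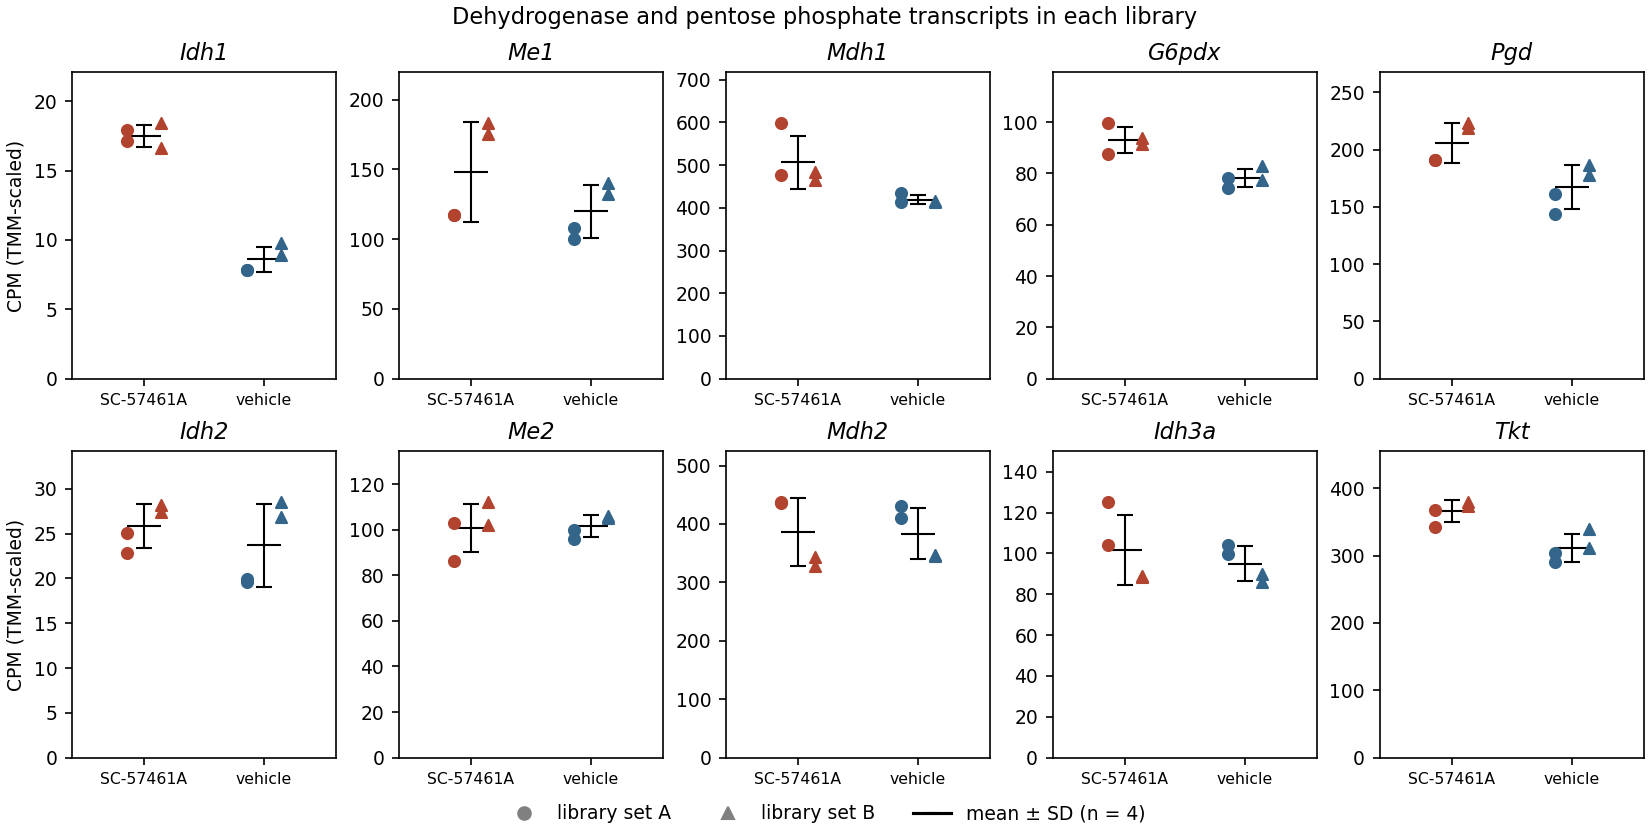
TMM-scaled CPM of each of the 10 genes in every library, SC-57461A left of vehicle, with points marked by library set and the mean and SD of each treatment. The 4 *Idh1* points with SC-57461A sit between 16.6 and 18.4 CPM, above the vehicle points at 7.85 to 9.75 CPM; the *Mdh2* and *Me2* points of the treatments overlap.

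The promoters of *Idh1*, *Idh2*, *Me1*, *G6pdx* and *Pgd* are shown. They belong to the cytosolic and mitochondrial NADP-linked isocitrate enzymes, and to cytosolic NADPH producers with smaller differences than *Idh1*. RefSeq promoter windows (build GRCm38.p6, 250 bases before to 50 after an annotated start) matched 8 of the 10 members, with 11 windows in all; *Idh3a* and *Me2* had no entry. Each window was searched on both strands for TCACNCCAC (a sterol regulatory element core), CACCCCAC (part of such an element, which lies within the longer motif where its N is C), TGACNNNGC (the antioxidant response element core), CACGTG (the E-box) and CCAAT. Capitals mark matches, which on the minus strand read as the reverse complement.
Idh1, upstream start, chr1:65186430-65186729, minus strand: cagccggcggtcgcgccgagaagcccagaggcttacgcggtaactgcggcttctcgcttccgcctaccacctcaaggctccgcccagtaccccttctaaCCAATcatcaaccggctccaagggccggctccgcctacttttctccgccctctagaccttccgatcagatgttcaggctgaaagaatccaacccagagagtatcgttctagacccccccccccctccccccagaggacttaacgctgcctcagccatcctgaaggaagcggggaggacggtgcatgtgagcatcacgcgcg
Idh1, downstream start, chr1:65179093-65179392, minus strand: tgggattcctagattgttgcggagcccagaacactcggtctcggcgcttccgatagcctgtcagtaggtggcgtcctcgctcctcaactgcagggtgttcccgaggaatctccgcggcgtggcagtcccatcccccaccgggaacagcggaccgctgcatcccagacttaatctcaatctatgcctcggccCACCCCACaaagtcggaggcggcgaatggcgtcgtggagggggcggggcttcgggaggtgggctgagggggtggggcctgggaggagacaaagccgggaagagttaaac
Idh2, chr7:80115301-80115600, minus strand: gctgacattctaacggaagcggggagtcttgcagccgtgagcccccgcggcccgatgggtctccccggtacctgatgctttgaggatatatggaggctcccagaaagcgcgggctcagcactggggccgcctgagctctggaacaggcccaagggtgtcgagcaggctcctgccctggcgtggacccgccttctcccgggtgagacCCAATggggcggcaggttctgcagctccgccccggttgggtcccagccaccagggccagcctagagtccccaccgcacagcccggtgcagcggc
Me1, upstream start, chr9:86695865-86696164, minus strand: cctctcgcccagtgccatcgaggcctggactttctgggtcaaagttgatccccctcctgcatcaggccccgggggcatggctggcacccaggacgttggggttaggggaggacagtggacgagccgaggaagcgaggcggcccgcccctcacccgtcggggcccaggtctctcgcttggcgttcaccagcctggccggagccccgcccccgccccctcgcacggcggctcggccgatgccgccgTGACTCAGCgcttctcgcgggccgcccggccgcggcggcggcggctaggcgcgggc
G6pdx, chrX:74428831-74429130, minus strand: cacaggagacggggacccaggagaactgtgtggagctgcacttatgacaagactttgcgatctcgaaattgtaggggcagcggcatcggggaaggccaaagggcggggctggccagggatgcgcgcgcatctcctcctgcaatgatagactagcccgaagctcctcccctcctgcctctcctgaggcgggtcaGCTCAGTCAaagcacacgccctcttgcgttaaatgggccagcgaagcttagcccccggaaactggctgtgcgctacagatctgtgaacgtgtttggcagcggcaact
Pgd, downstream start, chr4:149166033-149166332, minus strand: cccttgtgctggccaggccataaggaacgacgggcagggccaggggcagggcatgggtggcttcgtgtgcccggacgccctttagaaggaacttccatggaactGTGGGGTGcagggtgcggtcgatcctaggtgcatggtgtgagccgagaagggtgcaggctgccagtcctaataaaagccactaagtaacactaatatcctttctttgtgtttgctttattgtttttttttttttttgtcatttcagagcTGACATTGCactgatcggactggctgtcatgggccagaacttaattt

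CACCCCAC lay in the *Idh1* window at the downstream start, beginning at position -59 from it, and on the opposite strand of the *Pgd* window, at -146. It occurs in 2.87% of the 32851 promoter windows in the table. The longer TCACNCCAC, in 1.24% of all windows, was in 0 of the 11 member windows, as was CACGTG, in 7.15%. TGACNNNGC, which 12.4% of all windows hold, was in the windows of *Me1* (at -6), *G6pdx* (at -57), *Pgd* (at 4) and *Mdh1* (at 6). The *Pgd* and *Mdh1* matches began after the annotated start, which for *Pgd* was the downstream one. CCAAT, in 37.4% of all windows, was in those of *Idh1* (at -151), *Idh2*, *Mdh1*, *Me1* and *Pgd*. The CCAAT matches of *Me1* and *Pgd* lay in windows at their other annotated starts, which are not printed here. These are letter matches in a window and say nothing of binding.

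*Idh1* (ENSMUSG00000025950, mm10 chr1:65158616-65186500, minus strand) encodes the cytosolic and peroxisomal NADP-dependent isocitrate dehydrogenase, which turns isocitrate into 2-oxoglutarate with release of NADPH. Its level was 16.6, 17.9, 17.1 and 18.4 CPM in SC-57461A replicates 1 to 4, against 7.85, 7.86, 9.75 and 8.90 CPM in vehicle replicates 1 to 4. Every SC-57461A library was above every vehicle library, and the gap between the treatments was wider than the range within either. The log2 difference was 1.03 ± 0.11 (SE, n = 4 per treatment). Within set A it was 1.16 ± 0.16 and within set B 0.91 ± 0.13 (SE, n = 2 per treatment in each). Over the 32 analysis settings the difference was 0.80 to 1.16, and leaving out each library in turn gave 0.97 to 1.09. *Idh1* was not called in limma on log2(FPKM + 1) without a filter on low values, nor in the fit with the replicate number as a block.

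*Idh2* (ENSMUSG00000030541, chr7:80094846-80115392, minus strand) encodes the mitochondrial NADP-dependent enzyme that carries out the same reaction as *Idh1*. It had 27.4, 22.8, 25.1 and 28.2 CPM with SC-57461A, against 19.6, 19.9, 26.9 and 28.5 CPM with vehicle. The treatments overlapped, and the lowest values of both came from set A libraries. The log2 difference was 0.12 ± 0.15 pooled, 0.28 ± 0.13 within set A and 0.00 ± 0.10 within set B (SE). *Idh3a* (ENSMUSG00000032279, chr9:54586511-54604661, plus strand), the catalytic alpha subunit of the NAD-dependent isocitrate dehydrogenase of the tricarboxylic acid (TCA) cycle, had 89.0, 104, 125 and 88.4 CPM with SC-57461A and 99.9, 104, 89.8 and 85.8 CPM with vehicle. Its highest library was SC-57461A replicate 3, and the treatments otherwise covered the same range.

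Per length, the cytosolic to mitochondrial balance of the isocitrate enzymes was set apart between treatments by *Idh1*. The ratio of *Idh1* to *Idh2* in deposited FPKM was 0.568, 0.735, 0.638 and 0.61 in SC-57461A replicates 1 to 4, against 0.373, 0.368, 0.339 and 0.292 in vehicle replicates 1 to 4. No value overlapped, and *Idh2* was the more abundant transcript of the pair in all 8 libraries. The log2 ratio was higher by 0.90 with SC-57461A (0.89 within set A and 0.90 within set B). The ratio of *Idh1* to *Idh3a* averaged 0.153 ± 0.026 with SC-57461A and 0.0792 ± 0.015 with vehicle (SD, n = 4 each), again without overlap.

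**Figure D2:**
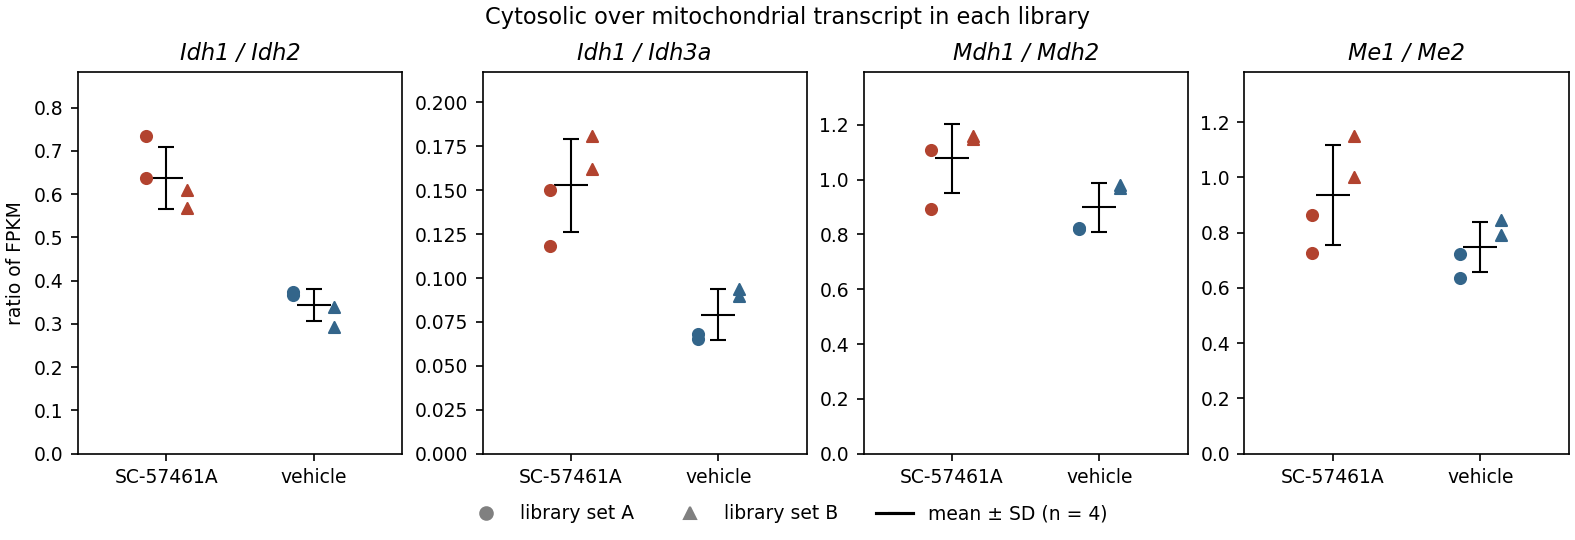
Ratio of deposited FPKM, cytosolic over mitochondrial enzyme, in each library for 4 pairs, SC-57461A left of vehicle and points marked by library set. The treatments are apart for *Idh1* to *Idh2* (0.568 to 0.735 with SC-57461A, 0.292 to 0.373 with vehicle) and *Idh1* to *Idh3a*, and overlap for *Mdh1* to *Mdh2* and *Me1* to *Me2*.

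*Mdh1* (ENSMUSG00000020321, chr11:21556787-21572367, minus strand) encodes cytosolic malate dehydrogenase, which interconverts malate and oxaloacetate and feeds the malate-aspartate shuttle. It had 466, 477, 598 and 484 CPM with SC-57461A, against 413, 435, 415 and 413 CPM with vehicle. Every SC-57461A library was above every vehicle library, and SC-57461A replicate 3 was far above the other 3. The log2 difference was 0.27 ± 0.11 (SE, n = 4 per treatment), with 0.35 ± 0.13 within set A and 0.19 ± 0.08 within set B, and it was 0.17 without SC-57461A replicate 3. *Mdh1* overlaps *Wdpcp* on the other strand, which held 142 to 354 counts per library beside 21375 to 30674 for *Mdh1*.

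*Mdh2* (ENSMUSG00000019179, chr5:135778480-135790398, plus strand), the mitochondrial malate dehydrogenase of the TCA cycle, had 328, 435, 437 and 344 CPM with SC-57461A, against 411, 430, 345 and 347 CPM with vehicle. The 4 high values were the set A libraries, whatever the treatment, and the treatments overlapped. The log2 difference was 0.01 ± 0.14 (SE). The *Mdh1* to *Mdh2* ratio was 1.16, 0.892, 1.11 and 1.15 with SC-57461A, against 0.819, 0.825, 0.981 and 0.97 with vehicle. SC-57461A replicate 2 lay among the vehicle values; the log2 ratio was higher with SC-57461A by 0.26 pooled, 0.28 in set A and 0.24 in set B.

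*Me1* (ENSMUSG00000032418, chr9:86581371-86695953, minus strand) encodes cytosolic malic enzyme, which turns malate into pyruvate with release of NADPH. It had 183, 117, 117 and 175 CPM with SC-57461A, against 108, 99.8, 132 and 140 CPM with vehicle. Pooled, the treatments overlapped; within each library set, every SC-57461A library was above every vehicle library. The log2 difference was 0.30 ± 0.19 (SE) pooled, 0.17 ± 0.10 within set A and 0.40 ± 0.08 within set B. *Me1* has near-identical copies. The transcripts of *Gm7049* (98.5% identity over 1638 bases) and *Gm48795* (98.7% over 1159 bases) match it, and no counts are given for them here. That of *Gm7329* matches at 99.0% identity over 210 bases and held 22 to 49 counts per library. Reads of these loci may be split between them.

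*Me2* (ENSMUSG00000024556, chr18:73770040-73815392, minus strand), the mitochondrial NAD-linked malic enzyme, had 102, 86.4, 103 and 112 CPM with SC-57461A, against 95.8, 99.9, 106 and 105 CPM with vehicle. The treatments overlapped in full, with a log2 difference of -0.02 ± 0.10 (SE). The *Me1* to *Me2* ratio averaged 0.935 ± 0.18 with SC-57461A and 0.749 ± 0.090 with vehicle (SD, n = 4 each) and overlapped.

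*G6pdx* (ENSMUSG00000031400, chrX:74409483-74429194, minus strand) encodes glucose-6-phosphate dehydrogenase, the NADPH-producing entry step of the pentose phosphate pathway. It had 91.4, 87.5, 99.5 and 93.9 CPM with SC-57461A, against 78.3, 74.3, 77.4 and 83.0 CPM with vehicle. The treatments did not overlap, and the log2 difference was 0.25 ± 0.09 (SE, n = 4 per treatment). *Ikbkg* overlaps *G6pdx* on the other strand, with 1856 to 3181 counts beside 3649 to 6159; whether the counting used strand is not stated, and *Ikbkg* itself differed by -0.02 on the log2 scale.

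*Pgd* (ENSMUSG00000028961, chr4:149149991-149166707, minus strand) encodes 6-phosphogluconate dehydrogenase, the other NADPH-producing step of that pathway. It had 219, 191, 191 and 223 CPM with SC-57461A, against 144, 161, 178 and 187 CPM with vehicle. The treatments were apart by a narrow margin, since the highest vehicle library was close to the lowest SC-57461A libraries. The log2 difference was 0.30 ± 0.12 (SE), with 0.34 in set A and 0.27 in set B.

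*Tkt* (ENSMUSG00000021957, chr14:30548359-30574722, plus strand) encodes transketolase, which makes no NADPH and links the pathway's sugar phosphates back to glycolysis. It had 379, 368, 342 and 374 CPM with SC-57461A, against 290, 304, 311 and 339 CPM with vehicle. The treatments were apart, again narrowly, with a log2 difference of 0.23 ± 0.09 (SE). *Tkt* and *Pgd* varied together over the 8 libraries (Pearson r 0.941 of log2 CPM, and 0.959 after set means were removed, given as a description of libraries that share treatment and set).

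A fit with library set as a term called 4 of the 10 members higher with SC-57461A, *Idh1*, *Me1*, *Pgd* and *Tkt*, where it called 2.83% of all genes tested higher. The set-adjusted log2 differences were 1.03 ± 0.09 for *Idh1*, 0.28 ± 0.07 for *Me1*, 0.30 ± 0.06 for *Pgd* and 0.23 ± 0.06 for *Tkt* (SE). *G6pdx* (0.25 ± 0.07) and *Mdh1* (0.27 ± 0.08) had estimates of the same size and were not called. These calls rest on the contrast that was in view when the genes were chosen, so they describe the fit and support nothing. The call of *Pgd* was lost without SC-57461A replicate 4 or vehicle replicates 1 or 2, with log2 differences of 0.31, 0.26 and 0.32. That of *Me1* was kept only without SC-57461A replicate 2 or 3 or vehicle replicate 1, and its log2 difference ran from 0.24 to 0.33 over the 8 fits. That of *Tkt* was lost whichever library was left out, with log2 differences of 0.20 to 0.26.

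**Figure D3:**
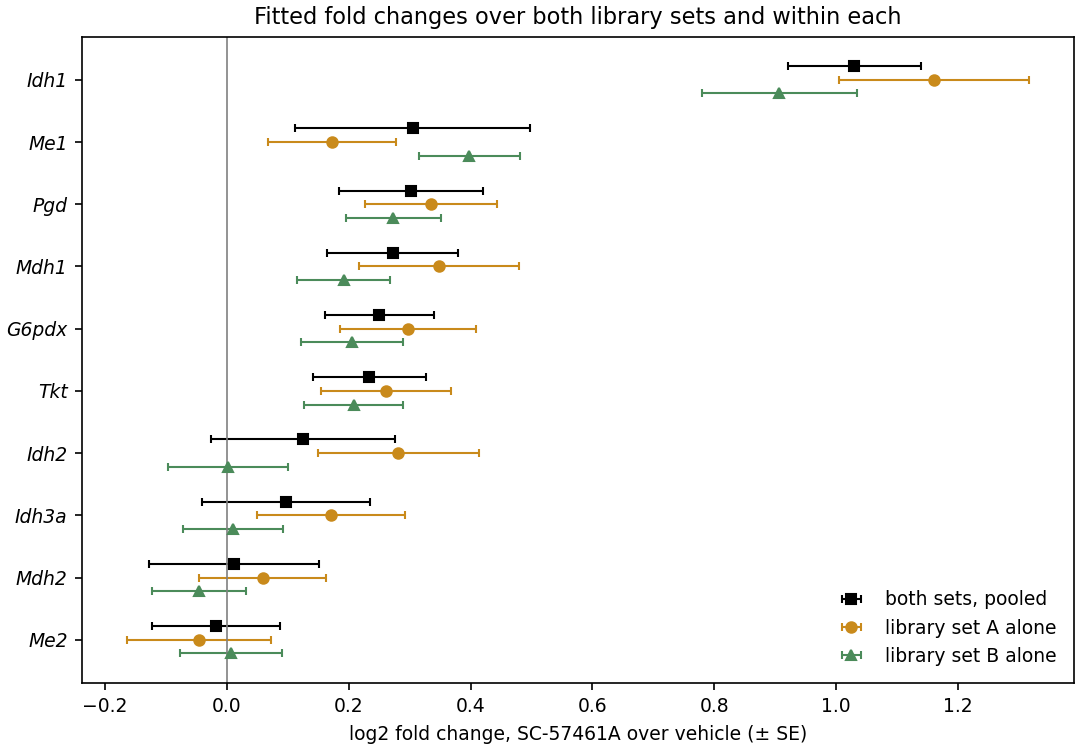
Log2 difference of SC-57461A minus vehicle (± SE) for each of the 10 genes, pooled over 4 libraries per treatment and within library sets A and B (2 libraries per treatment in each). *Idh1* is at 1.03 pooled, 1.16 in set A and 0.91 in set B; no other member passes 0.40 in either set.

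The size of the response to SC-57461A was next compared between the library sets, a difference that did not enter the choice of genes. In edgeR's quasi-likelihood test of treatment by set, 0 of the 10 members were called, against 0.00662% of all genes (1 of 15095; 749 had an unadjusted p under 0.05, and DESeq2 called 3 genes, none of them a member). For *Idh1* the response in set A minus that in set B was 0.24 ± 0.18 on the log2 scale (SE, adjusted p = 0.922, edgeR). For *Idh2* it was 0.27 ± 0.14 (adjusted p = 0.907, edgeR) and for *Me1* -0.23 ± 0.12 (adjusted p = 0.907, edgeR). A p that misses the threshold does not show that the sets responded alike, and each set held 2 libraries per treatment.

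The levels themselves were called different between the library sets in 5 of the 10 members, a share near the 50.6% of all genes called. The sets were read from the summed expression of these same libraries, so the set differences describe a split made from the data and no p is given for them. *Me1* was lower in set A by a log2 difference of -0.50 ± 0.07 (SE), *Idh2* by -0.35 ± 0.08 and *Pgd* by -0.24 ± 0.06. The TCA cycle enzymes *Mdh2* (0.33 ± 0.06) and *Idh3a* (0.29 ± 0.07) were higher in set A. *Idh1* (-0.12 ± 0.09) and *G6pdx* (-0.03 ± 0.07) were not called. Scaling by library totals, which moved the median of all genes to -0.11, called 7 members, 1 higher and 6 lower in set A, and 8115 of the 15095 genes. Under that scaling *Idh1*, *Me2* and *Tkt* gained a call and *Idh3a* lost its own.

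**Figure D4:**
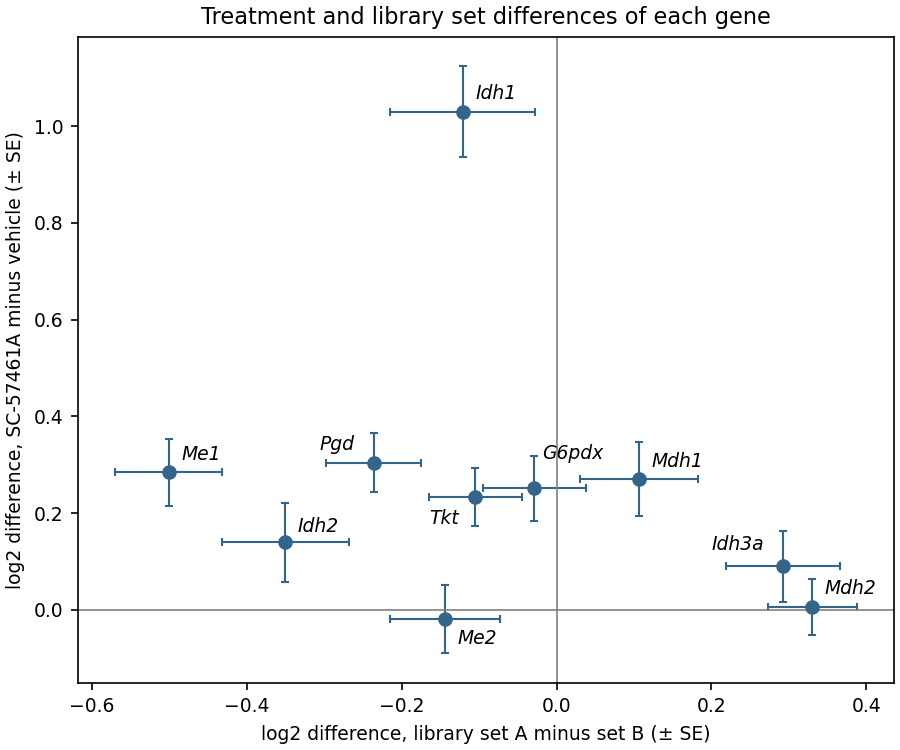
Each of the 10 genes by its log2 difference between library sets (A minus B, horizontal) and between treatments (SC-57461A minus vehicle, vertical) in the fit with both terms, with SE bars. *Idh1* is high on the treatment axis and near 0 on the set axis (-0.12), while *Me1* lies at -0.50 and *Mdh2* at 0.33 on the set axis.

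Of the marker lists of other cells, that of macrophages and neutrophils moved with the set. Its summed level was 27.6 to 50.6 CPM with SC-57461A and 32.8 to 46.2 CPM with vehicle in set A, against 6.2 to 6.82 and 7.91 to 8.4 CPM in set B, where 6 of the 9 (*Lyz2*, *Csf1r*, *C1qa*, *C1qb*, *S100a8* and *S100a9*) had a count of 0 in every library. Epithelial markers summed to 36.6 to 45.4 CPM with SC-57461A and 14.4 to 23.8 CPM with vehicle in set A, and to 9.31 to 13.1 and 14.2 to 16.5 CPM in set B, where *Krt8*, *Krt19*, *Krt20* and *Cdh1* were at 0; the vehicle sums overlapped between sets. T cell (14.2 to 20.5 CPM), B cell (14.4 to 17.6 CPM) and stromal and endothelial sums (69.7 to 86.5 CPM) overlapped between sets, and mast cell markers reached at most 0.351 CPM. ILC3 markers summed to 29.5 to 43.7 CPM with SC-57461A and 19.3 to 28.6 CPM with vehicle, higher with SC-57461A in every library. In set B, where *Idh1* was 1.88-fold higher with SC-57461A, *Cd68* (6.73 and 6.2 CPM with SC-57461A, 7.69 and 8.26 CPM with vehicle) and *Epcam* (7.45 and 9.92 CPM with SC-57461A, up to 13.7 CPM with vehicle) were not at 0. The part of these markers in the treatment difference of *Idh1*, and in the set differences of *Me1*, *Idh2*, *Pgd*, *Mdh2* and *Idh3a*, was not tested.

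Levels of different members can be set side by side only per length. In deposited FPKM, *Mdh1* averaged 172 ± 13.8 with SC-57461A and 146 ± 7.46 with vehicle, and *Mdh2* 161 ± 14.6 with SC-57461A and 163 ± 9.47 with vehicle (SD, n = 4 each). These malate dehydrogenases led the set in both treatments, and their order to each other was not separated with SC-57461A, where their ranges overlapped. *Tkt* came next, at 49.2 ± 5.11 with SC-57461A and 42.7 ± 5.04 with vehicle.

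*Idh3a*, *Me2*, *Me1*, *Pgd* and *G6pdx* followed at 26.5 to 36.8 FPKM on average with SC-57461A and 22.7 to 37.2 FPKM with vehicle, and neighbours among these 5 overlapped in range. *Idh2* was below them at 8.78 ± 1.31 with SC-57461A and 8.25 ± 2.07 with vehicle. *Idh1* was the least abundant member, at 5.54 ± 0.415 with SC-57461A and 2.78 ± 0.453 with vehicle, and did not overlap *Idh2* in either treatment. The gene lengths implied by the deposited FPKM exceed the longest GENCODE M21 coding transcript of every member, most for *Pgd* (7291 against 2218 bases) and *Tkt* (7387 against 3223 bases). With transcript lengths in their place, *Mdh2* led in both treatments and *Pgd* was in place 4 at 92.6 ± 12.5 with SC-57461A and 76.4 ± 11.8 with vehicle, while *Idh2* and *Idh1* stayed last. A gene's difference between treatments does not depend on its length.

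The genes whose log2 CPM most resembled that of *Idh1* over the 8 libraries were *Fads2* (r = 0.991), a fatty acid desaturase, *Hmgcs1* (r = 0.988), the HMG-CoA synthase of sterol synthesis, and *Ifrd2* (r = 0.987). For *Me1* they were *Uty* (r = 0.993), *Slc38a2* (r = 0.986) and *Rbpj* (r = 0.985), and for *Idh2* they were *Cdc16* (r = 0.99), *Zfp954* (r = 0.983) and *Coq2* (r = 0.98). *G6pdx* was most like *Thumpd1* (r = 0.978), *Tex261* (r = 0.971) and *Prmt5* (r = 0.969). Each is the highest of 8312 genes searched, and libraries of a treatment or a set share more than the genes compared, so these are descriptions.

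Of 78 tested genes in surrounding pathways, 8 rose with SC-57461A and 0 fell in the pooled edgeR fit, where 0.272% of all genes rose. In the fit with library set 18 rose and 0 fell, where 2.83% of all genes rose. Without the list of NADPH-using enzymes, 1 of 59 rose in the pooled fit and 7 with library set. These lists were drawn up with earlier results known. Among the other pentose phosphate genes, 0 of 11 were called in the pooled fit (median log2 difference 0.10, against 0.0094 over all genes). *Prps2*, a phosphoribosyl pyrophosphate synthetase, averaged 35.6 ± 3.36 CPM with SC-57461A and 27.8 ± 2.24 CPM with vehicle (SD, n = 4 each) and was called with library set as a term and not pooled (log2 difference 0.36 ± 0.11, adjusted p = 0.451 pooled and 0.0355 with set, edgeR). *Rpia* (0.24), *Rbks* (0.36) and *Dera* (0.15), which act on pentose phosphates, were not called in either fit.

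Of 22 other genes of the TCA cycle and pyruvate entry, 0 were called in the pooled fit (median 0.07). With library set as a term 2 rose: *Pdk1*, a kinase that holds back pyruvate dehydrogenase (28.7 ± 6.83 CPM with SC-57461A and 21.6 ± 3.55 CPM with vehicle, edgeR adjusted p = 0.0187), and *Fh1*, fumarase (log2 difference 0.28, edgeR adjusted p = 0.0492). *Suclg2* (0.18) and *Sdhd* (0.19) were not called in either fit.

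Among 13 tested genes of the malate, aspartate, citrate and glycerol phosphate shuttles, *Slc25a1* alone rose in the pooled fit (median 0.16). It encodes the mitochondrial carrier that exports citrate in exchange for malate, and had 52.6 ± 2.48 CPM with SC-57461A and 31.2 ± 1.69 CPM with vehicle, a log2 difference of 0.75 ± 0.09 (SE, edgeR adjusted p = 0.00802). It was called in 27 of 32 settings, with adjusted p up to 0.203, and lost its call in the pooled fit without vehicle replicate 1, 2 or 3 (edgeR adjusted p = 0.0574, 0.0648 and 0.0635). *Acly*, which splits exported citrate into acetyl-CoA and oxaloacetate, averaged 376 ± 89.7 CPM with SC-57461A and 275 ± 62.2 CPM with vehicle and was called with library set as a term and not pooled (edgeR adjusted p = 0.782 pooled and 0.00181 with set). *Got1*, the cytosolic aspartate aminotransferase, was likewise at 80.8 ± 5.1 CPM with SC-57461A and 66.9 ± 4.9 CPM with vehicle (edgeR adjusted p = 0.605 pooled and 0.0311 with set). *Gpd1l* (0.23) was not called in either fit.

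The other NADPH sources had 0 of 13 called in the pooled fit (median 0.07). *Shmt2*, the mitochondrial serine hydroxymethyltransferase that feeds folate-linked NADPH production, averaged 222 ± 12.6 CPM with SC-57461A and 180 ± 8.38 CPM with vehicle (log2 difference 0.30 ± 0.09, edgeR adjusted p = 0.467 pooled and 0.0246 with set). *Aldh1l1*, a folate enzyme that makes NADPH, had a low level of 1.64 ± 0.403 CPM with SC-57461A and 0.771 ± 0.455 CPM with vehicle (edgeR adjusted p = 0.633). *Mthfd2* (0.16) and *Nadk2* (0.34) were not called in either fit.

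Of the enzymes that spend NADPH, 7 of 19 rose in the pooled fit, where 0.272% of all genes did, and 11 with library set as a term, where 2.83% of all genes did. Their median log2 difference was 0.57. The list was drawn up with earlier results known, and its difference from the other lists was not tested. Genes of sterol synthesis were among them, with log2 differences of 2.01 for *Msmo1*, 1.96 for *Cyp51*, 1.64 for *Fdft1*, 1.32 for *Dhcr7*, 1.31 for *Hsd17b7* and 1.26 for *Sqle*. The adjusted p of these named genes in edgeR ran from 0.000117 (*Fdft1*) to 0.0145 (*Sqle*). *Sqle* was called in 3 of the 8 pooled fits that left out a library, those without SC-57461A replicate 2 or 3 or vehicle replicate 4 (edgeR adjusted p over the 8 fits 0.0274 to 0.0877). *Tm7sf2*, *Nqo1* and *Fasn* were called with library set as a term and not in the pooled fit; DESeq2 without that term also called *Tm7sf2*. *Fasn*, fatty acid synthase, was at 669 ± 264 CPM with SC-57461A and 452 ± 178 CPM with vehicle (edgeR adjusted p = 0.876 pooled and 0.0135 with set).

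**Figure D5:**
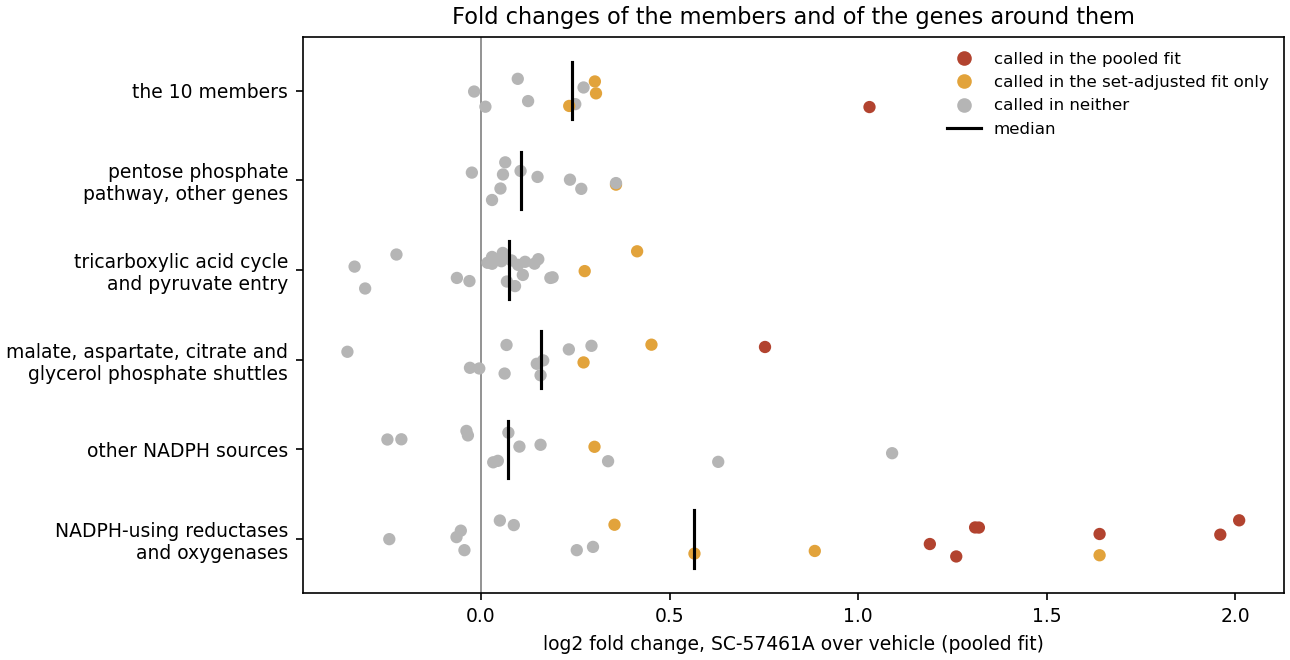
Pooled log2 difference of SC-57461A minus vehicle for each tested gene of the 10 members and the 5 surrounding lists, with the list median as a line and colours for genes called in the pooled fit, called with library set as a term and not pooled, or called in neither. The NADPH-using enzymes have a median of 0.57 with 7 called, and the members a median of 0.24 with *Idh1* called.

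Of the genes called with library set as a term and not in the pooled fit, *Acly* and *Tm7sf2* were called in all 8 set-term fits that left out a library. *Fasn* was called in 5 of those fits, *Shmt2* in 4, *Pdk1* and *Nqo1* in 3, *Prps2* and *Got1* in 2 and *Fh1* in 1, with edgeR adjusted p of at most 0.196 (*Fh1*).

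*G6pd2* (0 to 7 counts per library), *Tktl1* (0 to 10 counts) and *Cybb* (0 to 54 counts) were below the filter on low counts and not tested, and *Tktl2* and *Mdh1b* were not analysed here.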

How the data were processed

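RNA-seq measured transcripts in 8 libraries, grouped by treatment label. The submitters' processing notes name cutadapt 4.7, FastQC and mm10; the annotation, aligner, counter and strand setting were not given in the sources used here. Whole-number counts were taken as deposited. The deposited table holds whole-number counts per gene and FPKM, computed by the authors (fragments per gene length and library total), per the file headers. Of 25367 genes, 24998 received a GENCODE M21 symbol by identifier; 0 sample columns were unmatched. Total counts were 47376196 to 71155654 per library. A count of 0 allows up to 3 counts, for counting error only.

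After filterByExpr (15095 genes passed) and TMM scaling, counts were tested with edgeR 4.0.16 (quasi-likelihood, two-sided, Benjamini-Hochberg adjusted p under 0.05 over all genes) in R 4.3.3, on treatment alone. Library sets, split at the widest gap in summed FPKM, entered as a term in an alternative. DESeq2 1.42.0, limma 3.58.1 on log2(FPKM + 1), other scalings and filters, the replicate block and leaving out each library were further alternatives. The edgeR fits on treatment, on treatment with library set, and on their interaction were also run on simulated data, with outcomes not reported here. Between libraries, chi-square divided by its degrees of freedom was 16.7 to 583, so none was a repeat deposit. Copies were sought with BLAST 2.17.0 (at least 95% identity over 50% of the shorter transcript).

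The members and lists were chosen with earlier results of these data known. Named genes were all members; in each list, every gene called in the pooled fit and the 4 with the smallest p; and the 3 genes most correlated with *Idh1*, *Idh2*, *Me1* and *G6pdx* (mean of at least 10 CPM, prior count 2). Genes called only with library set were named after their values were seen. Some genes that the rule names are not reported here.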

Additional observations from a re-analysis of the deposited data

Results flagged for a closer look

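*Mdh1* had 1 library apart in each treatment. In the SC-57461A libraries, replicate 3, at 598 CPM, lay so far above the other 3 that its gap was 0.866 of the group's whole range. In the vehicle libraries, replicate 2, at 435 CPM, gave a gap of 0.888. The *Mdh1* to *Mdh2* log2 FPKM ratio of SC-57461A replicate 2, at 0.892 on the linear scale, was below the others with a gap of 0.854. Each passed Dixon's 95% critical value for 4 samples; chance passes it in about 1 in 20 groups, and 28 were examined. *Mdh2* was slightly higher with SC-57461A within set A and slightly lower within set B; the fitted responses differed by 0.0967 on the log2 scale, and the interaction was not called (edgeR adjusted p = 0.934).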

How the results depend on the processing

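The 4 libraries per treatment, 2 in each library set, limit the precision. Members called with SC-57461A numbered 1 in the pooled fit and 0 in limma on log2(FPKM + 1) without a filter. With library set as a term they numbered 4; that term with DESeq2, library totals or RLE size factors, chosen after seeing the data like the fits with that term that leave out a library, gave 6, 2 and 4. Leaving out each library kept 1 in the pooled fit and gave 1 to 4 with the set term. For all genes the count was 50, against 195 with DESeq2, 32 in limma without a filter, 98 in set A alone, 102 in set B alone and 804 with library set as a term (1504, 725 and 810 with DESeq2, library totals and RLE), and without each library 28 to 38 in the pooled fit and 249 to 973 with the set term. For other pathway genes it was 8, against 5 in limma without a filter and 18 with library set as a term (22, 17 and 17), and without each library 5 to 7 and 12 to 19. The cause was not tested.

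The deviations of same-numbered libraries from their treatment means correlated at -0.587, 0.635, -0.561 and 0.608 for replicates 1 to 4. The positive values were pairs within a library set and the negative ones pairs across sets. Set means were left in, so these values cannot show whether same-numbered libraries were paired. The replicate block left 0 members, 15 genes in all and 3 other pathway genes called.

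The treatment-by-set test called 0 members in every setting (0 to 0 without each library), and 5 to 6 members were called different between sets without each library. The log2 ratio differences ran from 0.819 to 0.948 for *Idh1* to *Idh2*, 0.862 to 1.07 for *Idh1* to *Idh3a*, 0.216 to 0.347 for *Mdh1* to *Mdh2* and 0.203 to 0.423 for *Me1* to *Me2* without each library. Of 310 member log2 differences under alternatives, 306 moved by less than the spread between replicates. The 4 that moved were all *Idh1*, at 0.80 to 1.16.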
